A study of Mus musculus with 14 samples.

Results

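Transcripts of 9 genes of mature oligodendrocytes and of the myelin sheath, Mbp, Mobp, Mal, Mog, Mag, Cnp, Cldn11, Ermn and Aspa, were taken by name from a table of 27781 named gene rows. All 9 had a row, and all 9 passed the filter on low values that left 24554 genes for testing. Nuclei of neurons had been isolated from the medial entorhinal cortex (MEC) of mice, a cortical area next to the hippocampus, and turned into SmartSeq RNA libraries. The groups were 7 libraries from aged mice and 7 from young mice. The labels give aged or young as the mouse's only attribute, with no age in months, strain, sex or treatment. Whether the libraries come from different animals is not stated, and p-values therefore cover the spread among these libraries. The study set the transcriptomes beside electrophysiological recordings.

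Myelin is a spiral of compacted oligodendrocyte membrane around an axon. Its cytoplasmic faces are held together by basic proteins, its outer and inner turns carry adhesion proteins, and channels of cytoplasm with cytoskeletal proteins and enzymes remain between the compact turns. The transcription factors Olig1, Olig2, Sox10 and Myrf direct the maturation of oligodendrocytes and the transcription of myelin genes. Grey matter of the cortex holds oligodendrocytes among its neurons, and neurons are not a main source of these proteins.

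Levels are in the normalized units of the authors' table. They are not counts, and sequencing depth per library is not known. The libraries fell into 2 sets by Xist, the RNA that coats the inactive X chromosome of female cells. Xist ranged from 7378 to 25459 in the Xist-positive set (5 aged libraries, numbered 3, 4, 5, 6 and 7, and 2 young libraries, numbered 2 and 3) and from 0 to 5.13 in the Xist-negative set (2 aged libraries, 12 and 13, and 5 young libraries, 11, 16, 17, 18 and 19). Age and set were thus unevenly crossed, and neither sex nor batch is in the labels, so the age differences of the members come from a fit with age alone and from a fit that also holds the set (set-adjusted). Neuronal markers were abundant in every library: 10 of them summed to 125948 to 224570 in aged libraries and 137459 to 187381 in young libraries. Aged library 3 stood apart in the members and beyond them, and the members' results that rest most on it are given with and without it. For other genes a value includes this library unless stated. It had the lowest Xist of its set, 7378, with the next at 13571. Over all genes tested, its mean Pearson's r with its own set was 0.916, against 0.931 to 0.940 for the other Xist-positive libraries. In the Xist-negative set, young library 19 was at 0.913. Neuronal markers were mixed in aged library 3, which was the highest library for 4 of 10 and the lowest for Syt1 and Slc17a7. It had 55770 for Syt1 and 1562 for Slc17a7, where the lowest young libraries had 66515 and 2895. Its neuronal sum was 163325, below the median of the aged libraries (191460) and that of the young libraries (172007). In bulk nuclei, fewer cells of a type and less RNA per cell cannot be told apart.

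Promoter sequences are shown for the 5 members whose 250 bases before the start (RefSeq, GRCm38.p6) held a match to a motif of Sox10 or Myrf, the factors that bear on the whole group. The letters searched on both strands were ACAAAG and ACAATG for the SOX family, CTGGCAC and CTGGTAC for Myrf, and CAGCTG and CAGATG, the E-boxes to which Olig factors can bind. Capitals mark a SOX or Myrf match, and bases within an annotated exon of the gene were left out. Of 9 members, 8 were matched to a promoter.
Mobp, chr9:120149492-120149706, plus strand: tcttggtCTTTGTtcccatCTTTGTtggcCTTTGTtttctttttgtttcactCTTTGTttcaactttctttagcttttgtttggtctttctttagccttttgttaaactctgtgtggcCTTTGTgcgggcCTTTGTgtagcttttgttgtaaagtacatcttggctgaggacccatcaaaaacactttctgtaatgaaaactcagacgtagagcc
Cnp, chr11:100574689-100574903, plus strand: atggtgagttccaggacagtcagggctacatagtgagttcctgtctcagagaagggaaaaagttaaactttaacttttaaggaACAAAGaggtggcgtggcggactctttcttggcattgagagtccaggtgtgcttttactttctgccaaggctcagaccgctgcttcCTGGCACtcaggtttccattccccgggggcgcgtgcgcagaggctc
Mag, chr7:30914923-30915172, minus strand: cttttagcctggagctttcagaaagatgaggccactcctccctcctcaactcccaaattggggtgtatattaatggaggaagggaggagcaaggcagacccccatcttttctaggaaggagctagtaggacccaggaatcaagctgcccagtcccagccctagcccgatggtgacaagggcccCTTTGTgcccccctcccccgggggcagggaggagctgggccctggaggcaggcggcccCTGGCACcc
Mog, chr17:37023399-37023648, minus strand: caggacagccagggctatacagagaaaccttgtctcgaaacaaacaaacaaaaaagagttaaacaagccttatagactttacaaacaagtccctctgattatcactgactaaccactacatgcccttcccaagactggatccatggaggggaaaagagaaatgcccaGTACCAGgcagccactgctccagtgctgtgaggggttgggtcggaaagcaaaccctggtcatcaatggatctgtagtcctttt
Ermn, chr2:58052865-58053114, minus strand: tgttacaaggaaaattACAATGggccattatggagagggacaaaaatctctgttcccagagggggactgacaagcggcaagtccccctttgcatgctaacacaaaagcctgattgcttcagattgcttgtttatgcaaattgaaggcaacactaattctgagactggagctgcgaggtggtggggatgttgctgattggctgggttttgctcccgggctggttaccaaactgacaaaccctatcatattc

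The Mobp window held 6 matches to the SOX letters ACAAAG, all on the opposite strand. Cnp and Mag each had 1 SOX and 1 Myrf match in the printed windows. Mag had further RefSeq windows: chr7:30914864-30915113, which overlaps the printed one, held the same matches, and chr7:30914322-30914571 held none of the motifs. Mog had 1 Myrf match on the opposite strand, and Ermn had 1 match to ACAATG. Only Aspa held an E-box among the 8 members, with 1 match to CAGCTG and 1 to CAGATG, and neither Mal nor Cldn11 held any of the 6 motifs. Matches to the SOX letters and the E-boxes are common. ACAAAG was in 16.5% of 32851 RefSeq promoter windows of the same length, ACAATG in 10.7%, CAGCTG in 13% and CAGATG in 14.4%. Matches to the Myrf letters were less so, with CTGGCAC in 4.19% and CTGGTAC in 1.83%. Either SOX motif was in 25.2% of all windows and in 5 of 10 member windows. For either Myrf motif this was 5.93% and 4 of 10, and for either E-box 25.5% and 1 of 10. The member windows include overlapping windows of Mag, which share their matches. A match describes the letters only. The genes of the factors themselves did not pass the age test. Sox10 averaged 97.9 ± 62.3 in aged libraries and 56.0 ± 34.1 in young libraries (± SD over 7 libraries a group; log2 difference 0.91, standard error 0.59, limma adjusted p = 0.317; set-adjusted 1.46, adjusted p = 0.277). Without aged library 3 the difference of Sox10 was 0.68 with age alone and 1.25 set-adjusted. Myrf averaged 150 ± 108 in aged libraries and 132 ± 43.9 in young libraries (± SD over 7 libraries a group; log2 difference 0.04, standard error 0.39, limma adjusted p = 0.960; set-adjusted -0.09; -0.23 with age alone without aged library 3).

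The main comparison asked how the members differed between aged and young libraries. No member passed the test with age alone, and none in the set-adjusted fit. Mean levels were higher in aged libraries for 8 of 9 members, from 1.23 times the young mean for Mal to 2.28 times for Ermn, and Mog was at 0.964 times. On the log2(value + 1) scale 8 of 9 differences (aged minus young) were positive with age alone, with a median of 0.63 against -0.25 over all 24554 genes. Set-adjusted, 9 of 9 were positive, with a median of 1.21 against -0.16 over all genes. At a limma adjusted p under 0.05 (Benjamini-Hochberg over all genes), 0.00407% of all genes were called with age alone (1 gene) and 0.00815% with the set (2 genes). At an unadjusted p under 0.05, 2 of 9 members were higher in aged libraries with age alone, Mbp and Mobp, where 6.5% of all genes were. With the set the count was 5 of 9, Mbp, Mobp, Cnp, Ermn and Aspa, where 4.03% of all genes were. The members vary together across libraries, so these counts are not over independent genes and give no measure of excess. For no member were all aged libraries above all young libraries, as they were for 0.138% of genes. When limma weighted the libraries by their spread, with age alone, 2 members passed, Mbp at 0.94 (adjusted p = 0.00898) and Mog at -1.28 (adjusted p = 0.0423), the members' median turned to -0.22, and 13048 of all genes were called.

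**Figure D1:**
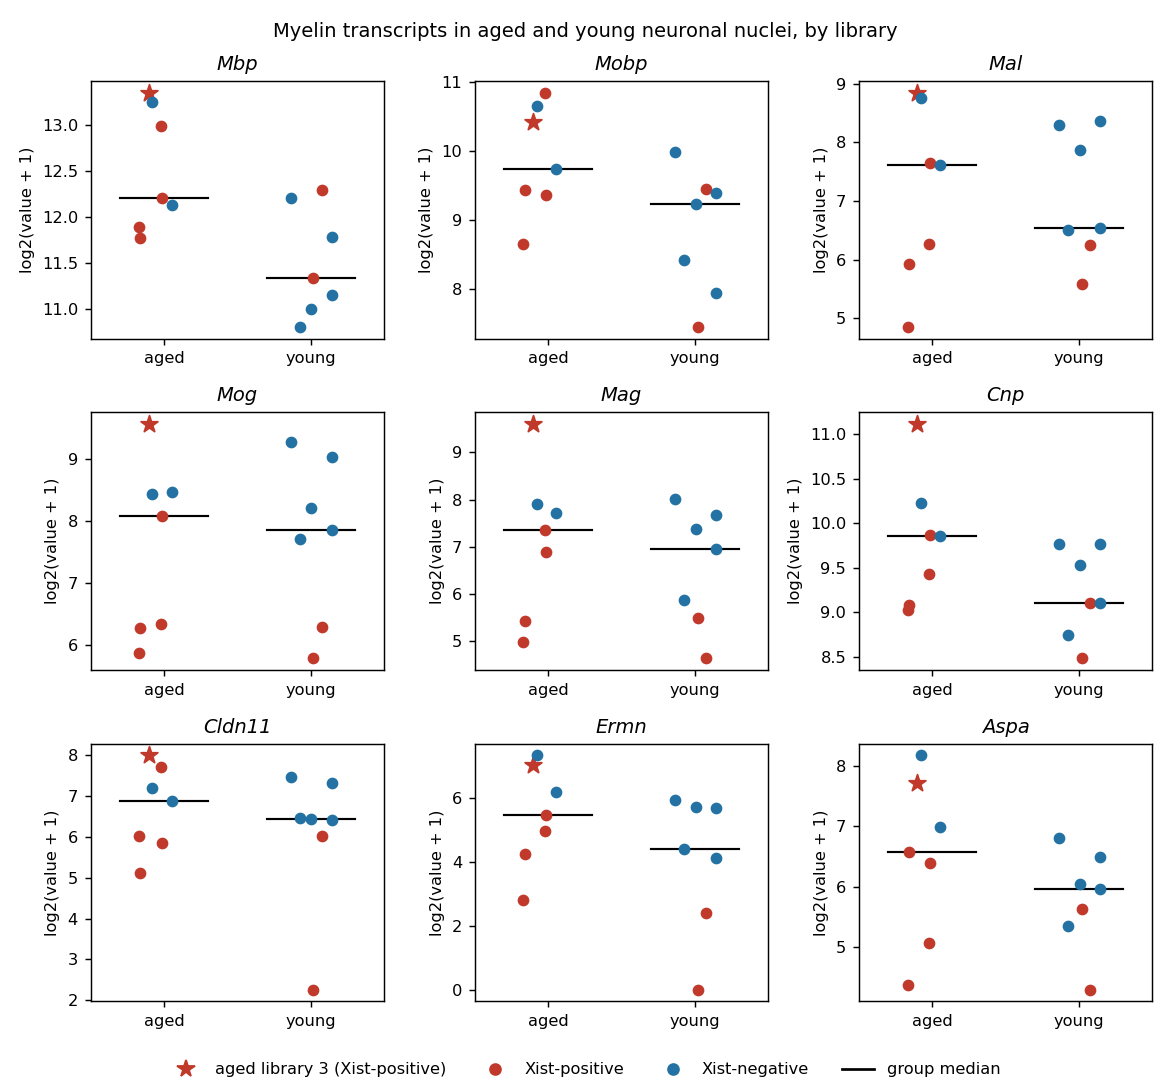
Level of each of the 9 members in every library, as log2(value + 1), in 7 aged and 7 young libraries. Points are libraries coloured by library set, the star is aged library 3, and bars are group medians. Aged library 3 is the highest library in 6 of the 9 panels, and aged and young libraries overlap in all of them.

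Among the genes of compact myelin, Mbp, which encodes the basic protein that closes the cytoplasmic gap between membrane turns, was the most abundant member. Its value was 3481 at the lowest, 4706 at the median and 10405 at the highest in aged libraries, against 1781, 2583 and 5010 in young libraries. All 7 aged libraries lay above the young median and 3 above the highest young library (aged libraries 3, 5 and 13). The mean was 6383 ± 2935 in aged libraries and 3130 ± 1309 in young libraries (± SD over 7 libraries a group). The age difference was 1.002 with age alone (standard error 0.31, limma adjusted p = 0.182) and 0.96 set-adjusted (standard error 0.34, limma adjusted p = 0.276). Without aged library 3 it was 0.86 with age alone. Within the Xist-positive libraries the difference was 0.62 (standard error 0.53) and within the Xist-negative libraries 1.30 (standard error 0.41). The Mbp locus (GENCODE M21 on mm10, chromosome 18, 82475146 to 82585637, plus strand) also makes the longer Golli transcripts, which neurons express, and the table does not separate them.

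Mobp encodes a small basic protein of the same dense line. Its value was 400.4 at the lowest, 853 at the median and 1833 at the highest in aged libraries, against 173, 601 and 1009 in young libraries. Of the aged libraries, 6 lay above the young median and 3 above the highest young library, again libraries 3, 5 and 13. The mean was 1058 ± 542 in aged libraries and 533 ± 296 in young libraries (± SD over 7 libraries a group). On the log2 scale the difference was 1.04 with age alone (standard error 0.42, limma adjusted p = 0.186) and 1.25 set-adjusted (standard error 0.44, limma adjusted p = 0.277). It was similar within each set, 1.29 (standard error 0.76) in Xist-positive libraries and 1.204 (standard error 0.50) in Xist-negative libraries. The gene lies on chromosome 9, 120149707 to 120181484, plus strand, and its promoter is the one printed with the 6 SOX matches.

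Mal, a tetraspan proteolipid of lipid-rich myelin membrane (chromosome 2, 127633226 to 127656695, minus strand), was 27.8 at the lowest, 195 at the median and 460.1 at the highest in aged libraries, against 47.2, 92.5 and 331 in young libraries. The groups overlapped over most of their range. The log2 difference was 0.07 with age alone (standard error 0.66, limma adjusted p = 0.954), 0.73 set-adjusted (standard error 0.60, limma adjusted p = 0.603) and, when aged library 3 was left out, -0.22 with age alone and 0.47 set-adjusted.

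Among the adhesion and noncompact myelin genes, no age difference passed. Mog, an immunoglobulin-family protein of the outermost membrane (chromosome 17, 37010743 to 37023398, minus strand), was 57.3 at the lowest, 272 at the median and 761 at the highest in aged libraries, against 54.2, 232 and 620.3 in young libraries. It was the single member with a negative difference, -0.17 with age alone (standard error 0.66, limma adjusted p = 0.888), and the sign turned to 0.61 set-adjusted (standard error 0.57, limma adjusted p = 0.653). Within the sets its difference was 1.19 (standard error 1.09) in Xist-positive libraries and 0.03 (standard error 0.46) in Xist-negative libraries. Leaving out aged library 3 gave -0.50 with age alone and 0.31 set-adjusted.

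Mag, a sialic acid-binding adhesion protein of the membrane next to the axon (chromosome 7, 30899176 to 30914873, minus strand), was 30.3 at the lowest, 163 at the median and 778 at the highest in aged libraries, against 23.7, 123 and 256 in young libraries. Aged library 3 held the value of 778, and it was the only aged library above the highest young one. The mean was 225 ± 256 in aged libraries and 124 ± 87.7 in young libraries (± SD over 7 libraries a group). Without aged library 3 the aged mean was 133 ± 85.9. The age difference was 0.55 with age alone (standard error 0.71, limma adjusted p = 0.626), 1.21 set-adjusted (standard error 0.67, limma adjusted p = 0.444) and 0.14 with age alone without aged library 3. Leaving out aged library 6 gave 0.91 with age alone.

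Cnp encodes a cyclic nucleotide phosphodiesterase that keeps cytoplasmic channels open in myelin (chromosome 11, 100574904 to 100591729, plus strand). Its value was 521 at the lowest, 928 at the median and 2218 at the highest in aged libraries, against 356, 549 and 872 in young libraries. In all, 4 aged libraries lay above the highest young one (libraries 3, 7, 12 and 13), the largest number for any member. The mean was 1003 ± 587 in aged libraries and 622 ± 206 in young libraries (± SD over 7 libraries a group). The aged mean was 801 ± 263 without aged library 3. On the log2 scale the difference was 0.59 with age alone (standard error 0.31, limma adjusted p = 0.238) and 0.79 set-adjusted (standard error 0.32, limma adjusted p = 0.329). Leaving out aged library 3 gave 0.37 with age alone and 0.61 set-adjusted. Cnp overlaps Dnajc7 on the opposite strand, and the sources used here do not say whether counting used strand.

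Of the remaining members, Cldn11 encodes the claudin of the tight junctions between myelin turns (chromosome 3, 31149920 to 31164324, plus strand). It was 33.8 at the lowest, 118 at the median and 255 at the highest in aged libraries, against 3.79, 85.0 and 175 in young libraries. The value of 3.79 was young library 2, and the next lowest young library was at 64.1. The log2 difference was 0.63 with age alone (standard error 0.74, limma adjusted p = 0.592) and 1.31 set-adjusted (standard error 0.69, limma adjusted p = 0.421). Without young library 2 it was -0.0033 with age alone and 0.33 set-adjusted, and without aged library 3 it was 0.41 and 1.10.

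Ermn, whose product binds actin in the late oligodendrocyte (chromosome 2, 58045113 to 58052864, minus strand), had the largest difference of the 9 under both models with all libraries on the log2(value + 1) scale. Its value was 5.95 at the lowest, 43.3 at the median and 163 at the highest in aged libraries, against 0, 20.2 and 60.8 in young libraries. Young library 2 was listed at 0, and 3 aged libraries lay above the highest young one. The age difference was 1.40 with age alone (standard error 0.99, limma adjusted p = 0.354) and 2.66 set-adjusted (standard error 0.74, limma adjusted p = 0.204). Leaving out young library 2 gave 0.73 with age alone and 1.94 with the set. With age alone, Mbp (0.97) and Mobp (0.80) were then larger than Ermn. With a pseudocount of 10 in place of 1, Ermn was at 0.86 with age alone, below Mobp (1.02) and Mbp (0.9995). In the Xist-positive libraries Ermn was at 132, 18.1, 30.8, 5.95 and 43.3 in aged libraries 3 to 7, against 0 and 4.26 in young libraries 2 and 3. In the Xist-negative libraries it was at 73.3 and 163 in aged libraries 12 and 13, against 16.7 at the lowest, 51.1 at the median and 60.8 at the highest in the 5 young libraries. All aged libraries thus lay above all young libraries within each set, although the sets together overlapped. Ermn overlaps Galnt5, a gene of the opposite strand.

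Aspa encodes aspartoacylase, which splits N-acetylaspartate made by neurons into acetate and aspartate (chromosome 11, 73304992 to 73329596, minus strand). Its value was 19.6 at the lowest, 94.8 at the median and 289 at the highest in aged libraries, against 18.6, 61.0 and 110 in young libraries. Aged library 13 was highest and aged library 3 next, at 209. On the log2 scale the difference was 0.68 with age alone (standard error 0.62, limma adjusted p = 0.478) and 1.26 set-adjusted (standard error 0.55, limma adjusted p = 0.352). With age alone it was 0.39 without aged library 13 and 1.03 without aged library 6. Within the Xist-negative set aged libraries 12 and 13, at 125 and 289, lay above all 5 young libraries, the highest of which was at 110.

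**Figure D2:**
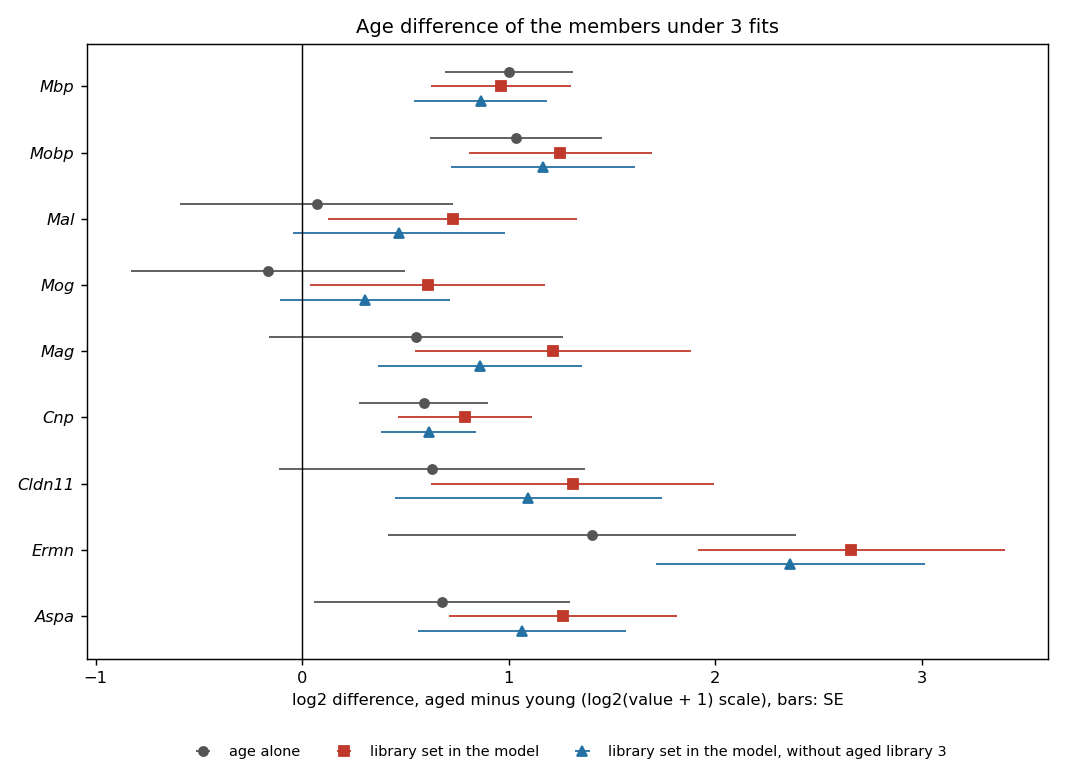
Log2 difference, aged minus young, of each member with its standard error under 3 fits: age alone, set-adjusted, and set-adjusted without aged library 3. Mog lies below 0 with age alone (-0.17), and all 9 members lie above 0 in both fits with the set, where Ermn has the largest difference (2.66 with all libraries).

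Within the sets, all aged libraries lay above all young libraries for 1 of 9 members in the Xist-positive set (Ermn), where 4.65% of all genes did so, and for 3 of 9 in the Xist-negative set (Cnp, Ermn and Aspa), where 3.84% did. The test of whether the age difference differed between the sets called 0% of all genes and none of the members, with a limma adjusted p of 1.0 for each member. The largest difference between the sets was that of Cldn11, at 2.40 in Xist-positive libraries (standard error 1.28) and 0.22 in Xist-negative libraries (standard error 0.48).

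Compared per kilobase of annotated exon, the order of the mean levels in aged libraries was Mbp (754), Cnp (276), Mog (163), Mobp (154), Mal (74.7), Cldn11 (67.2), Mag (55.3), Aspa (20.5) and Ermn (18.3). In young libraries Mbp (370) was again first, followed by Cnp (171), Mog (169), Mobp (77.8), Mal (60.8), Cldn11 (50.3), Mag (30.6), Aspa (10.3) and Ermn (8.04). The order was the same in both groups. Mbp and Cnp differed by more than the larger of their standard deviations in both groups, as did Mobp and Mal in aged libraries by a small margin, and all other neighbours in the order differed by less. Those standard deviations ran from 16.3 to 161 per kilobase in aged libraries below Mbp. Mbp made up 47.8 to 78.1% of the members' summed value in a library, so a sum over the 9 genes mostly reports Mbp.

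The members' summed value was 4923 to 16584 in aged libraries (median 7337) and 3052 to 8138 in young libraries (median 4275). It was 0.0152 to 0.0580% of a library's total in aged libraries and 0.00884 to 0.0290% in young libraries. Aged libraries 3 (16584), 13 (14101) and 5 (11234) exceeded every young library. These 3 libraries do not share a set, since library 13 was Xist-negative.

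**Figure D3:**
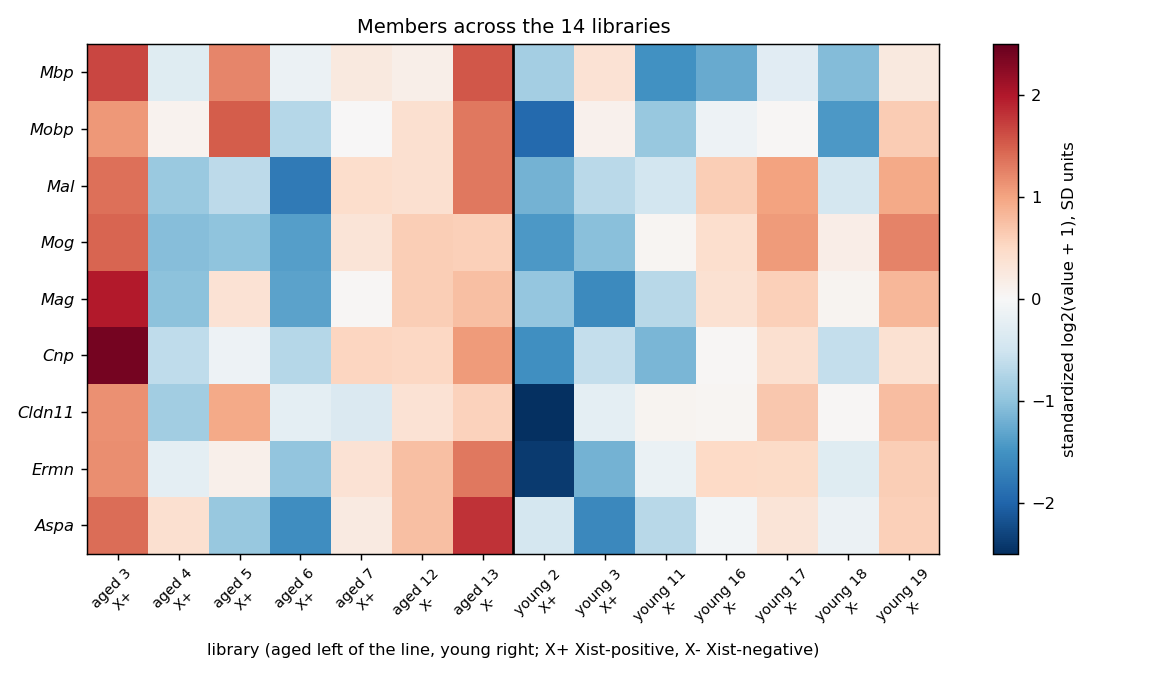
Members (rows) in the 14 libraries (columns, aged left of the line), as log2(value + 1) standardized per gene over all libraries, in units of SD. Red is above and blue below the gene's mean; X+ is Xist-positive and X- Xist-negative. Aged libraries 3 and 13 are red in all 9 rows, and young library 2 is blue in all 9.

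Aged library 3 was the highest of 14 libraries in 6 of 9 members (Mbp, Mal, Mog, Mag, Cnp and Cldn11) and among the top 3 in all 9. Over all genes it was the highest library for 14.1% (3461 genes). Aged library 13 was highest for Ermn and Aspa and in the top 3 for 7 members, and aged library 5 was highest for Mobp. At the other end, young library 2 was the lowest for 5 members and young library 3 for 2. Without aged library 3, 7 of 9 members had a positive difference with age alone (median 0.41), Mog and Mal being negative at -0.50 and -0.22. In the set-adjusted fit without that library 9 of 9 were positive, with a median of 0.87. No member passed in either fit without it.

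The members were also compared between the library sets. With age in the same model, 4 of 9 members were lower in Xist-positive libraries at a limma adjusted p under 0.05, where 36.5% of all genes were, so the members' share lay near that of all genes. The sets also differed over the whole library: 21152 to 22812 genes were above 0 in Xist-positive libraries and 25263 to 25615 in Xist-negative libraries, and the library totals did not overlap between the sets either (28615400 to 37421755 in Xist-positive libraries and 25058282 to 28041915 in Xist-negative libraries). Their part in the members' differences was not tested. Ermn averaged 33.5 ± 46.3 in Xist-positive libraries and 62.4 ± 48.9 in Xist-negative libraries (± SD over 7 libraries a group). Its log2 difference with age in the model, which is not that of these means, was -2.93 (standard error 0.74, limma adjusted p = 0.00345). Mog averaged 197 ± 260 in Xist-positive libraries and 369 ± 151 in Xist-negative libraries, with an age-adjusted difference of -1.81 (standard error 0.57, limma adjusted p = 0.0138). Mal and Aspa passed narrowly, with differences of -1.54 (limma adjusted p = 0.0424) and -1.36 (limma adjusted p = 0.0491). The 4 were not set apart by size: Cldn11 (-1.59) and Mag (-1.54) had differences as large as that of Mal and did not pass.

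The other members did not pass this test. Cldn11 differed by -1.59 (limma adjusted p = 0.0636), Mag by -1.54 (limma adjusted p = 0.0647), Mobp by -0.50 (limma adjusted p = 0.367) and Cnp by -0.46 (limma adjusted p = 0.246). Mbp was at 5444 ± 2807 in Xist-positive libraries and 4070 ± 2742 in Xist-negative libraries (± SD over 7 libraries a group), with an age-adjusted log2 difference of 0.09 (standard error 0.34, limma adjusted p = 0.841). When each library was left out in turn, Ermn passed in 14 of 14 cases, Mog in 13, Mal in 5 and Aspa in 3. Of the members not called with all libraries, Cldn11 passed in 3 cases and Mag and Cnp in 1 each. The count of members called ran from 2 to 7, with 7 when aged library 3 was left out and 2 without young library 2, 16, 17 or 19 or aged library 4, 6 or 13.

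The members varied together across libraries. With each gene's log2 values centred on the mean of its library set, Pearson's r over the 14 libraries was positive for all 36 pairs of members, with a median of 0.748, from 0.217 for Cldn11 and Aspa to 0.915 for Mal and Cnp. The libraries share age differences and scaling, and the correlation is a description. Without aged library 3 the median was 0.644, with a range of -0.0814 (Cldn11 and Aspa) to 0.876 (Cnp and Ermn) and 35 of 36 pairs above 0. Cldn11 had the lowest median r with the other members, 0.655 over 14 libraries and 0.508 without aged library 3, and Cnp the highest, 0.850 and 0.780.

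**Figure D4:**
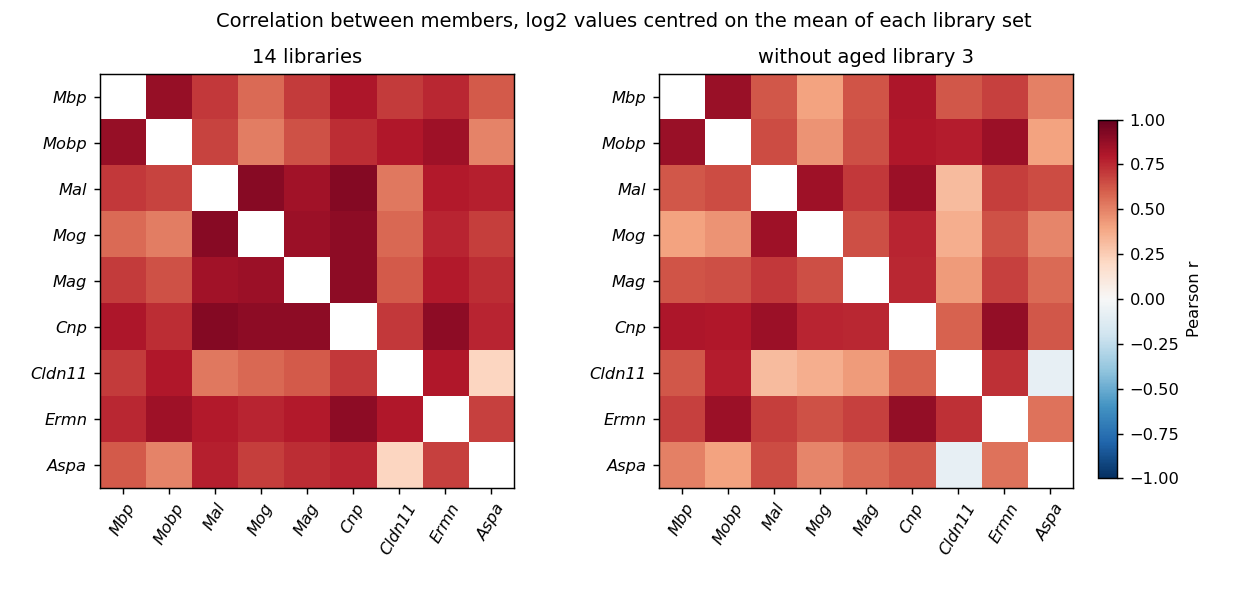
Pearson's r between each pair of members over libraries, on log2(value + 1) centred on the mean of each library set, in all 14 libraries (left) and without aged library 3 (right). The median r over 36 pairs is 0.748 on the left and 0.644 on the right, and the palest square in each panel is that of Cldn11 and Aspa.

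Among 13856 other genes with a mean value of 100 or more, those whose centred log2 values followed the members' mean most closely over 14 libraries included Phyh (r = 0.948), Fa2h (0.935), Tmem63a (0.935), Txndc12 (0.915), Trf (0.910), Coprs (0.905) and Cnpy2 (0.903). Fa2h makes the hydroxylated fatty acids of myelin galactolipids, Trf encodes transferrin and Phyh a peroxisomal enzyme that breaks down phytanic acid. Of these, Fa2h, Tmem63a and Trf belong to the lists of other oligodendrocyte genes. Without aged library 3 the closest included Lamp1, Phyh, Drap1, Tmem63a, Fa2h, Rac1 and Prkaca, with r from 0.868 to 0.903. The median r of other cell types' markers with the members' mean was 0.601 for microglia (6 genes), 0.416 for astrocytes (10 genes), 0.227 for neurons (10 genes), 0.103 for endothelium (6 genes) and 0.0812 for oligodendrocyte precursors (6 genes).

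The 3 lists of other mature oligodendrocyte genes, 33 in all, were set beside the members. None passed with age alone or with the set. Their differences were positive for 22 of 33 with age alone, with a median of 0.24, and for 27 of 33 with the set, with a median of 0.50. Without aged library 3, 18 of 33 were positive with age alone (median 0.05) and 20 of 33 set-adjusted (median 0.25). Aged library 3 was the highest library for 16 of the 33. In the list of other myelin membrane genes, 9 of 11 were positive with age alone (median 0.24) and 11 of 11 set-adjusted (median 0.64). Leaving out aged library 3 gave 7 of 11 (median 0.09) and 8 of 11 (median 0.48). The list includes Omg, a glycoprotein of oligodendrocytes and neurons (2059 ± 378 in aged libraries and 1464 ± 509 in young libraries; ± SD over 7 libraries a group; log2 difference 0.55, limma adjusted p = 0.186), and Cd9, a tetraspanin (414 ± 254 in aged libraries and 219 ± 89.9 in young libraries; log2 difference 0.77, limma adjusted p = 0.231). Tspan2, another tetraspanin, was at -0.48 with age alone and 0.10 set-adjusted.

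Of 6 myelin lipid enzymes, 3 had positive differences with age alone (median 0.06) and 4 set-adjusted (median 0.26). Leaving out aged library 3 gave 2 (median -0.18) and 3 (median 0.01). Gal3st1, the sulfotransferase that makes sulfatide, averaged 616 ± 415 in aged libraries and 276 ± 101 in young libraries (± SD over 7 libraries a group; log2 difference 0.998, limma adjusted p = 0.182; set-adjusted 0.91). Without aged library 3 the difference of Gal3st1 was 0.75 with age alone and 0.74 set-adjusted. Elovl7, a fatty acid elongase, was at -0.58 with age alone and -0.54 set-adjusted, and Ugt8a, which makes galactosylceramide, at -0.51 with age alone and 0.50 set-adjusted (0.096 without aged library 3). Of 16 other mature oligodendrocyte genes, 10 were positive with age alone (median 0.11) and 12 set-adjusted (median 0.20), and without aged library 3 the count was 9 in both fits (median 0.05 with age alone). Qdpr, a pterin reductase, had a difference of 0.67 with age alone (limma adjusted p = 0.187) and 0.50 set-adjusted, and of 0.47 and 0.37 without aged library 3. Adamts4, a metalloprotease, had -0.92 with age alone (limma adjusted p = 0.212) and -0.73 set-adjusted, and Ndrg1 -0.77 (limma adjusted p = 0.217) and -0.66. Trf was at 1354 ± 1101 in aged libraries and 655 ± 404 in young libraries, with a difference of 0.91 with age alone (limma adjusted p = 0.296) and 1.496 set-adjusted (limma adjusted p = 0.277). Leaving out aged library 3 gave 0.62 with age alone and 1.24 set-adjusted for Trf.

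The list of 9 oligodendrocyte transcription factors had 6 positive differences with age alone (median 0.80) and 5 set-adjusted (median 0.82), and none passed. The medians were 0.48 and 0.66 without aged library 3, with the same counts. Olig1, a basic helix-loop-helix factor of the lineage, averaged 194 ± 62.2 in aged libraries and 84.6 ± 39.7 in young libraries (± SD over 7 libraries a group), a difference of 1.24 with age alone (standard error 0.37, limma adjusted p = 0.182) and 1.45 set-adjusted (standard error 0.35, limma adjusted p = 0.158). Olig2 was at 19.5 ± 15.2 in aged libraries and 6.48 ± 3.80 in young libraries (difference 1.28 with age alone, limma adjusted p = 0.230, and 0.82 set-adjusted). Zfp488 and St18 had negative differences of -1.57 and -1.47 with age alone and of -0.58 and -0.79 set-adjusted. Earlier stages of the lineage were mixed. Of 5 genes of newly formed oligodendrocytes, 2 were positive with age alone (median -0.41) and 3 set-adjusted (median 0.28), with medians of -0.78 and 0.13 without aged library 3. Of 7 precursor genes 3 were positive with age alone (median -0.29) and 4 set-adjusted (median 0.15). Pdgfra, one of them, was at 0.80 with age alone (limma adjusted p = 0.613) and 2.35 set-adjusted (limma adjusted p = 0.171). The set-adjusted difference of Pdgfra was 2.24 without aged library 3. Its difference between the sets, Xist-positive minus Xist-negative, was -3.62 (limma adjusted p = 0.000112). The authors' deposited table has Pdgfra at 2.35 (adjusted p = 0.0806). Among the precursor genes Vcan was at -1.13 with age alone (limma adjusted p = 0.182) and -0.54 set-adjusted, and its difference between the sets, Xist-positive minus Xist-negative, was -1.38 (limma adjusted p = 0.000773). C1ql1 was at 1.77 with age alone (limma adjusted p = 0.207) and 1.63 set-adjusted, with 516 in aged library 3 against an aged mean of 97.7, and at 1.11 with age alone without that library.

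**Figure D5:**
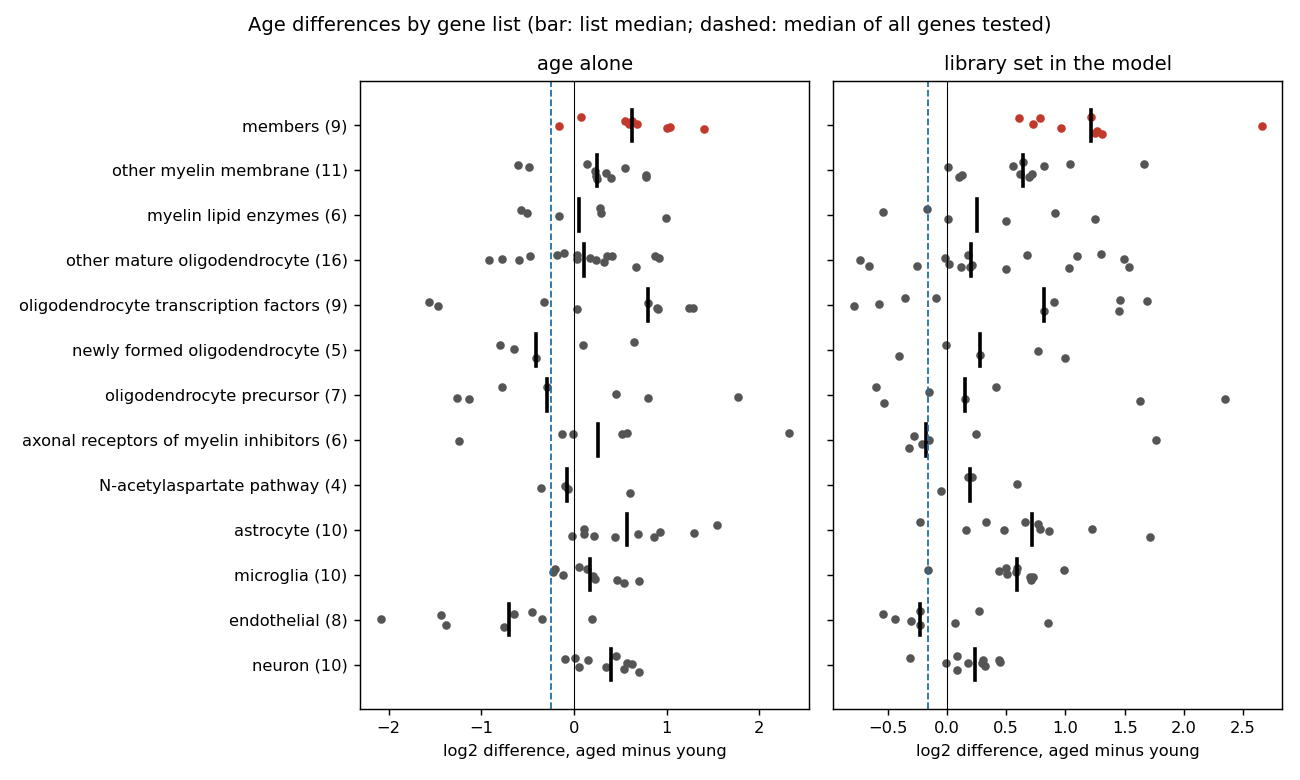
Log2 differences, aged minus young, of the genes of each list (number tested in brackets) with age alone (left) and in the set-adjusted fit (right). Points are genes, black bars are list medians and the dashed line is the median of all genes tested (-0.25 and -0.16). The members' medians of 0.63 and 1.21 lie right of that line, and the endothelial medians, -0.70 and -0.23, lie left of it.

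Partners of myelin on the neuronal side were also read. Of 6 axonal receptors of myelin inhibitors, 3 were positive with age alone (median 0.25) and 2 set-adjusted (median -0.18), with medians of 0.48 and -0.01 without aged library 3. Rtn4rl2, a Nogo receptor homologue, averaged 700 ± 540 in aged libraries and 127 ± 170 in young libraries (± SD over 7 libraries a group; log2 difference 2.32, limma adjusted p = 0.182; set-adjusted 1.76), and Rtn4r 2106 ± 1404 in aged libraries and 1250 ± 755 in young libraries (difference 0.52, limma adjusted p = 0.515; set-adjusted -0.21). Of the 4 other genes of the N-acetylaspartate pathway, 1 was positive with age alone (median -0.08) and 3 set-adjusted (median 0.19). The gene positive with age alone was Nat8l, the neuronal synthase of the substrate of Aspa (1383 ± 777 in aged libraries and 865 ± 506 in young libraries; difference 0.60 with age alone and -0.05 with the set, limma adjusted p = 0.345 and 0.950).

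Markers of other cell types were given the same reading, and no list had a member past the threshold. Astrocyte markers were positive for 9 of 10 with age alone (median 0.57) and with the set (median 0.71). Aldoc, an astrocyte-enriched aldolase, averaged 4652 ± 2863 in aged libraries and 1668 ± 389 in young libraries (± SD over 7 libraries a group; difference 1.30, limma adjusted p = 0.151; set-adjusted 1.23). Leaving out aged library 3 gave 1.09 with age alone and 1.08 set-adjusted for Aldoc. Astrocyte markers summed to 15690 to 34596 in aged libraries and 12238 to 25157 in young libraries, and aged library 3 was at 18678. Microglial markers were positive for 7 of 10 with age alone (median 0.17) and for 9 of 10 set-adjusted (median 0.59), and without aged library 3 the medians were 0.04 and 0.56. They summed to 1921 to 6769 in aged libraries and 1321 to 5238 in young libraries, with 4056 in aged library 3. Neuronal markers were positive for 9 of 10 with age alone (median 0.40) and for 8 of 10 set-adjusted (median 0.24), among them Syp, a synaptic vesicle protein (13522 ± 2493 in aged libraries and 9209 ± 2290 in young libraries; difference 0.57, limma adjusted p = 0.182; set-adjusted 0.44). Endothelial markers were positive for 1 of 8 with age alone (median -0.70) and for 3 of 8 set-adjusted (median -0.23; -0.42 without aged library 3). None of these markers was at 0 in any library, and their part in the members' differences was not tested.

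The authors' deposited table gives its own age comparison for each member, with a log2 fold change (aged over young) and an adjusted p. None of the 9 members was under 0.05 there, where 2.41% of the 21253 genes with an adjusted p were (512 genes). In the authors' deposited table all 9 fold changes were positive, from 0.87 for Cnp (adjusted p = 0.209) to 2.82 for Ermn (adjusted p = 0.0794). The authors' deposited table has Aspa at 1.49 (adjusted p = 0.102), Mbp at 0.996 (adjusted p = 0.103) and Mobp at 1.14 (adjusted p = 0.163). Mag was at 1.60 (adjusted p = 0.323), Mal at 0.99 (adjusted p = 0.431), Cldn11 at 1.01 (adjusted p = 0.495) and Mog at 0.90 (adjusted p = 0.556) in the authors' deposited table. Of the other genes on the lists, the authors' deposited table has Olig1 (1.45, adjusted p = 0.00651), Aldoc (1.43, adjusted p = 0.0129) and Rtn4rl2 (2.09, adjusted p = 0.0439) under 0.05. The sources used here do not name the model terms behind these values.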

How the data were processed

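RNA of neuronal nuclei from MEC was extracted with TRIzol and made into SmartSeq libraries, per the labels' protocols. Per the submitters' processing notes, STAR, kallisto, DESeq2 and mm10 were used; their roles and versions are not stated. The authors deposited 1 table with 27781 named gene rows. In its 14 library columns the authors deposited a normalized signal per gene, in which the median ratio to the geometric mean was 1.02 in every library, and 24.0 to 34.4% of low values lay within 0.05 of a whole step, so reads were not recovered and depth is unknown. The authors' log2 fold change and standard error, a deposited test score, and p-values of the authors, raw and adjusted, were read only as their comparison. A row without a name (0.0430 to 0.221% of a library's total) was left out.

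Differences were tested with limma 3.58.1 (R 4.3.3; lmFit, eBayes with trend) on log2(value + 1), over genes at 1 or more in at least 7 libraries, with Benjamini-Hochberg adjustment over all 24554 genes; this scale understates the change of low genes. The library set (Xist above 1000) was added as a term, and tables and figures were made with Python 3.11.15. The script was tested on simulated data. Named genes were the 9 members and the 8 genes most alike. Of each of 12 lists (103 genes, 102 tested), up to 4 genes with the smallest p for age were also named. Sox10, Myrf, Trf, Pdgfra and the genes most alike without aged library 3 were added after their values were seen. Some genes the rule names are not reported here. The members and lists were chosen with earlier results of these data known. Annotation is GENCODE M21 and promoters are RefSeq (GRCm38.p6).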

Additional observations from a re-analysis of the deposited data

Results flagged for a closer look

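In 3 members, 1 aged library lay far above the other 6. Mog was at 761 in aged library 3, with the next aged library at 354. Mag was at 778 in aged library 3, with the next at 239. Cnp was at 2218 in aged library 3, with the next at 1194. The gap to the next library was large against the range of the 7 aged libraries by Dixon's criterion. The criterion was applied to the values themselves and not on the log2 scale. Both ends of both age groups were searched for all 9 members, which vary together. Its rate of about 1 in 20 holds for a single search of normally distributed values, so it does not give the chance of these 3 cases. The same library was the highest of all 14 in 6 of 9 members. The cause was not tested.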

How the results depend on the processing

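No paired analysis was possible because the groups share only 1 number in their titles, 3. The number of genes called for age, 1 with age alone, was 8 with a pseudocount of 10, 52 with equal totals, 5 with equal upper quartiles, 13048 with library weights, 2 set-adjusted, 60 in Xist-positive libraries and 5 in Xist-negative libraries. It ran from 0 to 2381 when each library was left out (2381 without aged library 12) and from 0 to 3 with the set. No member was called for age under any setting except library weights, which called 2: Mbp at 0.94 and Mog at -1.28. The members' median, 0.63, was -0.22 with library weights. Members called for the library set, 4, became 7 with equal upper quartiles and ranged from 2 to 7 over libraries left out.

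Signs of single members turned in these cases. With library weights Mal was at -0.96, Mag at -0.57, Cldn11 at -0.38 and Ermn at -0.22. Mal was -0.13 with equal upper quartiles and -0.22 to 0.45 over libraries left out. Mog was 0.61 set-adjusted, 1.19 in Xist-positive and 0.029 in Xist-negative libraries, and -0.50 to 0.12 over libraries left out (0.31 to 0.77 set-adjusted). Mal was at 0.47 to 0.96 when set-adjusted with a library left out. Cldn11 ranged from -0.0033 (without young library 2) to 0.89 with age alone and 0.33 to 1.72 set-adjusted. The set difference of Mbp, 0.09, was -0.23 with equal totals, -0.35 with equal upper quartiles and -0.17 to 0.38 over libraries left out. The median of all genes, -0.25, was -0.45 with equal upper quartiles. The cause was not tested. Over libraries left out the limma adjusted p ran from 0.05 to 0.336 for Mbp and from 0.0996 to 0.336 for Mobp with age alone, and from 0.147 to 0.554 for Ermn set-adjusted. Depth is unknown, so what it limits could not be given; Ermn and Cldn11 in young library 2 were at or near 0.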

Other observations

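The deposited table has a row named Recording with 1 number per library and no unit. Aged library 3, the highest library in 6 of 9 members, had the lowest such number, 0.0350, and the other aged libraries ran from 0.0767 to 0.140. Young libraries ran from 0.0722 to 0.172. Aged library 13, the next highest in the members' summed value, was at 0.140.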
